A study of Mus musculus with 33 samples.

Results

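Cardiac sarcomere genes encode the proteins of the repeating contractile unit of heart muscle. The group described here is 10 genes, Myh6, Myh7, Myl2, Mybpc3, Actc1, Tnnt2, Tpm1, Ttn, Nebl and Myom2, chosen by name, out of 20661 protein-coding genes on chromosomes 1 to 19 of the RefSeq annotation of GRCm38.p6. In the sarcomere, myosin of the thick filament pulls on actin of the thin filament when calcium moves the troponin and tropomyosin that cover the actin. Titin spans from the Z disc, where thin filaments are anchored, to the M band, where thick filaments are cross-linked. Heart muscle cells already beat in the embryonic stage sampled here, and neither embryonic stem cells nor forebrain cells build sarcomeres.

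H3K9me2, a histone mark of repressed chromatin, and Lamin B1, a protein of the nuclear lamina that lines the nuclear envelope, were mapped by CUT&RUN, in which an antibody guides a nuclease to cut out the DNA it is bound to. The sources were a C57BL/6 mouse embryonic stem (mES) cell line kept in LIF + 2i medium after a first plating on fibroblast feeders, whole hearts of E11.5 wild-type C57BL/6 embryos, and right forebrain lobes of such embryos. Each source had 3 H3K9me2 and 3 Lamin B1 libraries, and IgG controls numbered 3 in mES cells, 6 in the heart and 6 in the forebrain, for 33 libraries in all. Replicates were separate culture vessels of 1 line, or separate pools of litters, and a whole heart also holds endocardial, epicardial and blood cells. The values below come from 9 domain lists, 3 per source, in bins of 10 kb, which place a stretch in a lamina-associated domain (LAD), a KOD or an open domain. KOD is the depositors' label and is not spelled out in the sources used here. Each list pools the libraries of its source, so every value is a single measurement with no replicate error and no test, and the depth behind it is unknown. RNA was not measured, so a state does not say whether a gene was transcribed, and in a mixed tissue a state held by some cells cannot be told apart from a weaker signal in all of them.

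The state of a gene is the list that covers the largest share of its body. By this measure each of the 10 genes differed in state between mES cells and heart, and 7 of them were open in the heart. Of these, Myh6, Myh7, Mybpc3, Tnnt2 and Ttn were KOD in the stem cells, whereas Actc1 and Nebl were LAD there. Myl2 and Tpm1 went the other way, from open to KOD, and Myom2 was LAD in the heart and KOD in the stem cells. With 10 kb trimmed from domain ends 6 genes differed, and with 20 kb trimmed 4 differed and 4 were open in heart. The genes lost from these counts were then in no list in mES cells or heart, and none came to share a state. The genes were picked with earlier results of these maps known, so the count of 10 describes them and supports nothing about sarcomere genes at large. Among the 17952 protein-coding genes listed in both maps, 19.6% differed in state, a share taken without a trim.

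In mES cells 6 of the 10 genes were KOD, 2 were LAD, 2 were open and 0 were in no list. Of all protein-coding genes 12.9% were KOD there, 16.5% LAD, 63.6% open and 7.04% in no list. In heart 7 were open, 2 KOD, 1 LAD and 0 in no list, and of all genes 58.0%, 17.8%, 14.2% and 9.99% were so. In forebrain 4 were KOD, 3 open, 2 LAD and 1 in no list, with 18.9%, 57.4%, 16.5% and 7.21% of all genes. In mES cells the count thus lay above the background for KOD and below it for open, and the count of open genes in heart was near the background.

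**Figure D1:**
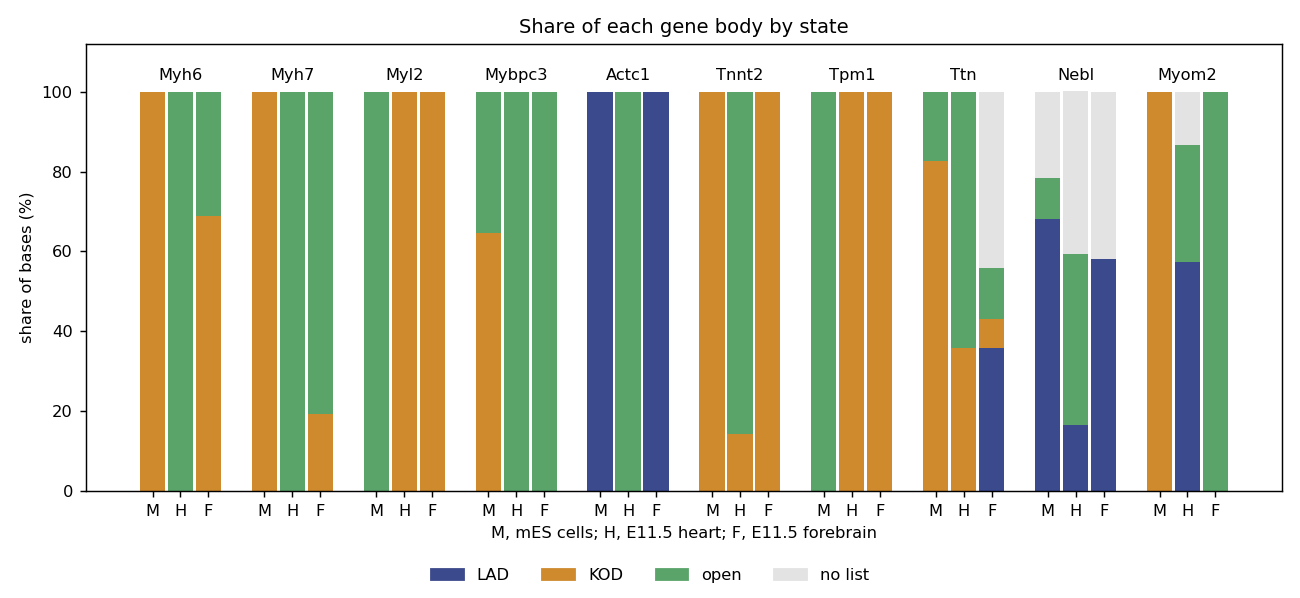
Share of the bases of each gene body (vertical axis, percent) in LAD, KOD, open or no list, for mES cells (M), E11.5 heart (H) and E11.5 forebrain (F), 1 pooled map each. The Myh6, Myh7, Mybpc3, Tnnt2 and Ttn bars are mostly KOD under M and mostly open under H. Actc1 is wholly LAD, open and LAD, and Myl2 and Tpm1 are wholly open, KOD and KOD.

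Sequence at the starts of some of these genes is shown first, since the state of the 10 kb bin at a start can be set beside that of the body. The 6 windows below are the 250 bases before an annotated start of transcription, 5′ to 3′ on the strand of the gene, from RefSeq on GRCm38.p6. Actc1, Myh6, Myh7 and Tnnt2 are shown because their starts were open in heart alone. Ttn is shown as a start outside the KOD that covers most of its body in mES cells. Myl2 is shown as a start open in mES cells alone and KOD in both tissues. Capitals mark matches, on either strand, to CATTCC (the M-CAT element, bound by TEAD factors), TATAAA, the CArG box (bound by serum response factor) and the MEF2 box.
Actc1, chr2:114052876-114053125, minus strand: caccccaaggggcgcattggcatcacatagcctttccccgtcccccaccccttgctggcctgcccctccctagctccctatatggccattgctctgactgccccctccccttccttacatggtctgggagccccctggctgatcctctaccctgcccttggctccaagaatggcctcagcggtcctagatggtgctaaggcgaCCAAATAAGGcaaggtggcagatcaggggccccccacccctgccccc
Myh6, chr14:54966608-54966857, minus strand: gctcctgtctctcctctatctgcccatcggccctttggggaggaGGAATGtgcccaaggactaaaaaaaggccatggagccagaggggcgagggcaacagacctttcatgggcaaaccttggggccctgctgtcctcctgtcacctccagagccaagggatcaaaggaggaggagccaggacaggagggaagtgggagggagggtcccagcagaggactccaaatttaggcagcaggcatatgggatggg
Myh7, chr14:54994627-54994876, minus strand: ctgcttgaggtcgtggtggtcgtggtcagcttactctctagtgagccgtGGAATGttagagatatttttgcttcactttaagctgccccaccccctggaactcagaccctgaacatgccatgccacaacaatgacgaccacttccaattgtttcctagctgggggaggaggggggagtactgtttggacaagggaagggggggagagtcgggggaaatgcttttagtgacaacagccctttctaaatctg
Tnnt2, chr1:135836084-135836333, plus strand: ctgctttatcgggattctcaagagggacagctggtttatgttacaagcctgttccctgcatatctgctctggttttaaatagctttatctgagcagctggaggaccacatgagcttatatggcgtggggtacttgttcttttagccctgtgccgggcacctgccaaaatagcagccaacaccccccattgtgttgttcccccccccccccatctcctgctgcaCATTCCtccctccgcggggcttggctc
Ttn, chr2:76982548-76982797, minus strand: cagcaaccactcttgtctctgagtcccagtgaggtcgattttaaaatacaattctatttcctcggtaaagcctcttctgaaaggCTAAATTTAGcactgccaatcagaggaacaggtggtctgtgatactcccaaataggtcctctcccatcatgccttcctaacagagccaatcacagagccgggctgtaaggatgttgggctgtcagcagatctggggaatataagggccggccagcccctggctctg
Myl2, chr5:122092474-122092723, plus strand: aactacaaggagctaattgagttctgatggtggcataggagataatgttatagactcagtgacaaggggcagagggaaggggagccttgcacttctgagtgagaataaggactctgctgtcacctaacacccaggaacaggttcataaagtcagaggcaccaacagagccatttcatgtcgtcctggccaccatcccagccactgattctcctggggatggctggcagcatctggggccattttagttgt

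The Actc1 window held a CArG box at -47 to -38, counted back from the base before the start, and the Ttn window a MEF2 box at -166 to -157. CATTCC lay at -206 to -201 before Myh6, at -201 to -196 before Myh7 and at -27 to -22 before Tnnt2. The Myl2 window shown had none of the 4 motifs marked by capitals, but that of its other start, at 122093189, held TATAAA at -216 to -211. Myh7 and Tnnt2 also have another start each, at 54994549 and 135836989, and those windows held none of the 4. No marked match overlapped another in these windows. Over the 15 starts that the table gives for 9 of the genes, with no entry used for Myom2, 5 windows held CATTCC, 2 a CArG box, 2 a MEF2 box and 1 TATAAA. The other CArG box lay before the Nebl start at 17462856, whose standing as a start is in doubt from the letters printed with Nebl, and without it the count is 1. Of all 32851 windows of this length in the table, 12.6%, 1.47%, 2.92% and 12.4% held these motifs. GATAA, the core of the GATA factor site, was in 5 of the 15 and in 22.6% of all, and CANNTG, the E box, in 12 of the 15 and in 66.2% of all. Windows of 1 gene can overlap, as do those of Myh7, and a match is a description of letters and not a binding site.

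The starts lie within the bodies, so their states are not separate evidence, and where 1 state covers a whole body it fixes that of the start. Of the 15 starts, 9 lay in open bins in heart, compared with 5 in mES cells and 1 in forebrain. Of all 31396 starts on these chromosomes, 53.3%, 59.0% and 53.2% were open in the same order. For mES cells, heart and forebrain in turn, KOD bins held 6, 3 and 8 starts, with 18.1%, 22.5% and 22.6% of all starts. LADs held 3, 1 and 3, with 16.1%, 14.1% and 17.0%. These counts include the Nebl entries at 17462856 and 17526130, whose standing as starts is in doubt. Both were LAD in mES cells and forebrain, and that at 17462856 was open in heart. The only start in an open bin in forebrain was that of Mybpc3.

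Of the thick filament genes, Myh6 and Myh7 encode the alpha and beta heavy chains of cardiac myosin, the motor itself. They are neighbours on chromosome 14, on the minus strand with a gap of 2.67 kb, so their states are not independent. Myh6 (54941921 to 54968017) was KOD over 100% of its body in mES cells, open over 100% in heart, and KOD over 69.0% and open over 31.0% in forebrain. Myh7 (54970684 to 54994626) was KOD over 100% in mES cells, open over 100% in heart, and open over 80.7% and KOD over 19.3% in forebrain. In mES cells a single KOD of 110 kb, from 54910001 to 55020000, covered both genes, and in heart a single open domain of 150 kb, from 54850001 to 55000000, did so. The neighbours Cmtm5, Il25 and Efs had the 3 states of Myh7, and 0 of 10 neighbours had those of Myh6.

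In forebrain the same stretch was broken into short pieces. A KOD of 20 kb held the 5′ part of Myh6, an open domain of 20 kb held most of Myh7, and a KOD of 30 kb held the 5′ end of Myh7. All 3 annotated starts of the pair were therefore KOD in forebrain, although the body of Myh7 counts as open there. Their flanks held no LAD in any source. For Myh6, open domains covered 58.0% of the 100 kb on both sides together in mES cells, 81.0% in the heart and 84.0% in the forebrain. KODs covered the rest. For Myh7 the open share was 57.0%, 75.0% and 77.3%. The nearest LAD was 2231.9 kb from Myh6 in mES cells, 982.0 kb in the heart and 992.0 kb in the forebrain.

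Each of these myosin genes holds a microRNA gene on its own strand, and the pair is shown because both lie in the stretch that was KOD in mES cells and open in the heart. The mature sequences, from RefSeq on GRCm38.p6, are printed 5′ to 3′ with the seed (bases 2 to 8) in capitals, beside that of Myh7b, a related myosin gene on chromosome 2.
mmu-miR-208a-3p, in Myh6, chr14:54949072-54949093: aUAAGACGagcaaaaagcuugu
mmu-miR-208b-3p, in Myh7, chr14:54975710-54975731: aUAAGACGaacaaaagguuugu
mmu-miR-499-5p, in Myh7b, chr2:155622893-155622913: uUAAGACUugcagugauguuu

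The miR-208a and miR-208b arms had the same seed and 19 of 22 bases alike, and 6 of 7 seed positions of miR-499-5p matched theirs. The bins of both miR-208 genes were KOD in the stem cells and open in each tissue, and in mES cells and heart the host body, wholly in 1 state, fixes this. At Mir208a the forebrain state thus differed from that of the start of Myh6, which was KOD. Myh7b and the bin of miR-499 were open in all 3 sources.

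Mybpc3 encodes cardiac myosin-binding protein C, which lies on the thick filament and tunes its motors. The gene (chromosome 2, 91118114 to 91136516) was KOD over 64.6% and open over 35.4% of its body in mES cells. In each of the tissues it was open over 100%. The KOD was only 20 kb long (91110001 to 91130000) and stood alone in open chromatin, and it covered the start of the gene. Open domains filled 95.9% of the flanks in mES cells and 100% in both tissues. None of the 8 protein-coding neighbours wholly within 100 kb, the nearest of which are Madd and Spi1, was KOD in mES cells, and all 8 were open in each tissue.

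Myl2 encodes the regulatory light chain of ventricular myosin. On chromosome 5, from 122092724 to 122113473, it was open over 100% in mES cells and KOD over 100% in both heart and forebrain. KODs of 370 kb in heart and 230 kb in forebrain covered it. KOD covered 3.64% of its flanks in mES cells, 100% in the heart and 93.3% in the forebrain. The whole neighbourhood had the same change, since all 3 protein-coding neighbours, Ccdc63, Ppp1cc (a catalytic subunit of protein phosphatase 1) and Gm52787, had the states of Myl2 in every source.

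Of the thin filament genes, Actc1 encodes cardiac actin, the main actin of the heart. It lies on chromosome 2 from 114047282 to 114052875, on the minus strand, and was wholly LAD in mES cells, wholly open in heart and wholly LAD in forebrain. The LADs of mES cells (113890001 to 114060000) and forebrain (113880001 to 114060000) ended at the same bin, 7.12 kb upstream of the gene. In heart the LAD ended at 113990000, 57.3 kb from the 3′ end of the gene, and an open domain of 170 kb from 114020001 to 114190000 covered it.

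The flanks of Actc1 showed where its border lay. The 100 kb downstream was LAD over 100% in mES cells and forebrain, and over 42.7% in heart, where 37.3% was open. The 100 kb upstream was open over 100% in heart, open over 42.9% and in no list over 50.0% in forebrain, and in no list over 92.9% in mES cells. The 1 neighbour within 100 kb, the gap junction gene Gjd2 at 32.9 kb, was LAD in mES cells and forebrain and in no list in heart. With 10 kb trimmed from domain ends 48.6% of the Actc1 body still lay in a LAD in the stem cells, with the same share in forebrain, and the rest lay in no list, so by largest share the gene was in no list in either source.

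Tnnt2 encodes cardiac troponin T, which ties the troponin complex to tropomyosin. The gene (chromosome 1, 135836315 to 135852268) was KOD over 100% in mES cells, open over 85.8% and KOD over 14.2% in heart, and KOD over 100% in forebrain. A border ran through the gene in heart, where the open domain of 510 kb on the upstream side ended at 135850000 and a KOD of 120 kb followed. Both annotated starts lay on the open side in heart. The 100 kb downstream was KOD over 100% in all 3 sources. The 100 kb upstream was open over 53.7% in mES cells, 100% in the heart and 63.7% in the forebrain, so the sources differed on the upstream side. Of 4 neighbours, Lad1 (ladinin), 2.97 kb away, had the states of Tnnt2 in each source. Tnni1, the slow troponin I gene 25.3 kb away, went from KOD to open in each tissue.

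Tpm1 encodes alpha-tropomyosin, the strand that covers the myosin sites on actin. It is not specific to heart muscle. On chromosome 9, from 67022590 to 67049672, it was open over 100% in mES cells and KOD over 100% in heart and forebrain. In heart a KOD of 1330 kb (66510001 to 67840000) covered it, and in forebrain a KOD of 220 kb. The KOD share of both flanks together was 39.8% in mES cells, 100% in the heart and 95.0% in the forebrain. Both neighbours, Lactb and the ribosomal protein gene Rps27l, had the states of Tpm1. No LAD lay within 6160.3 kb of Tpm1 in any source.

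**Figure D2:**
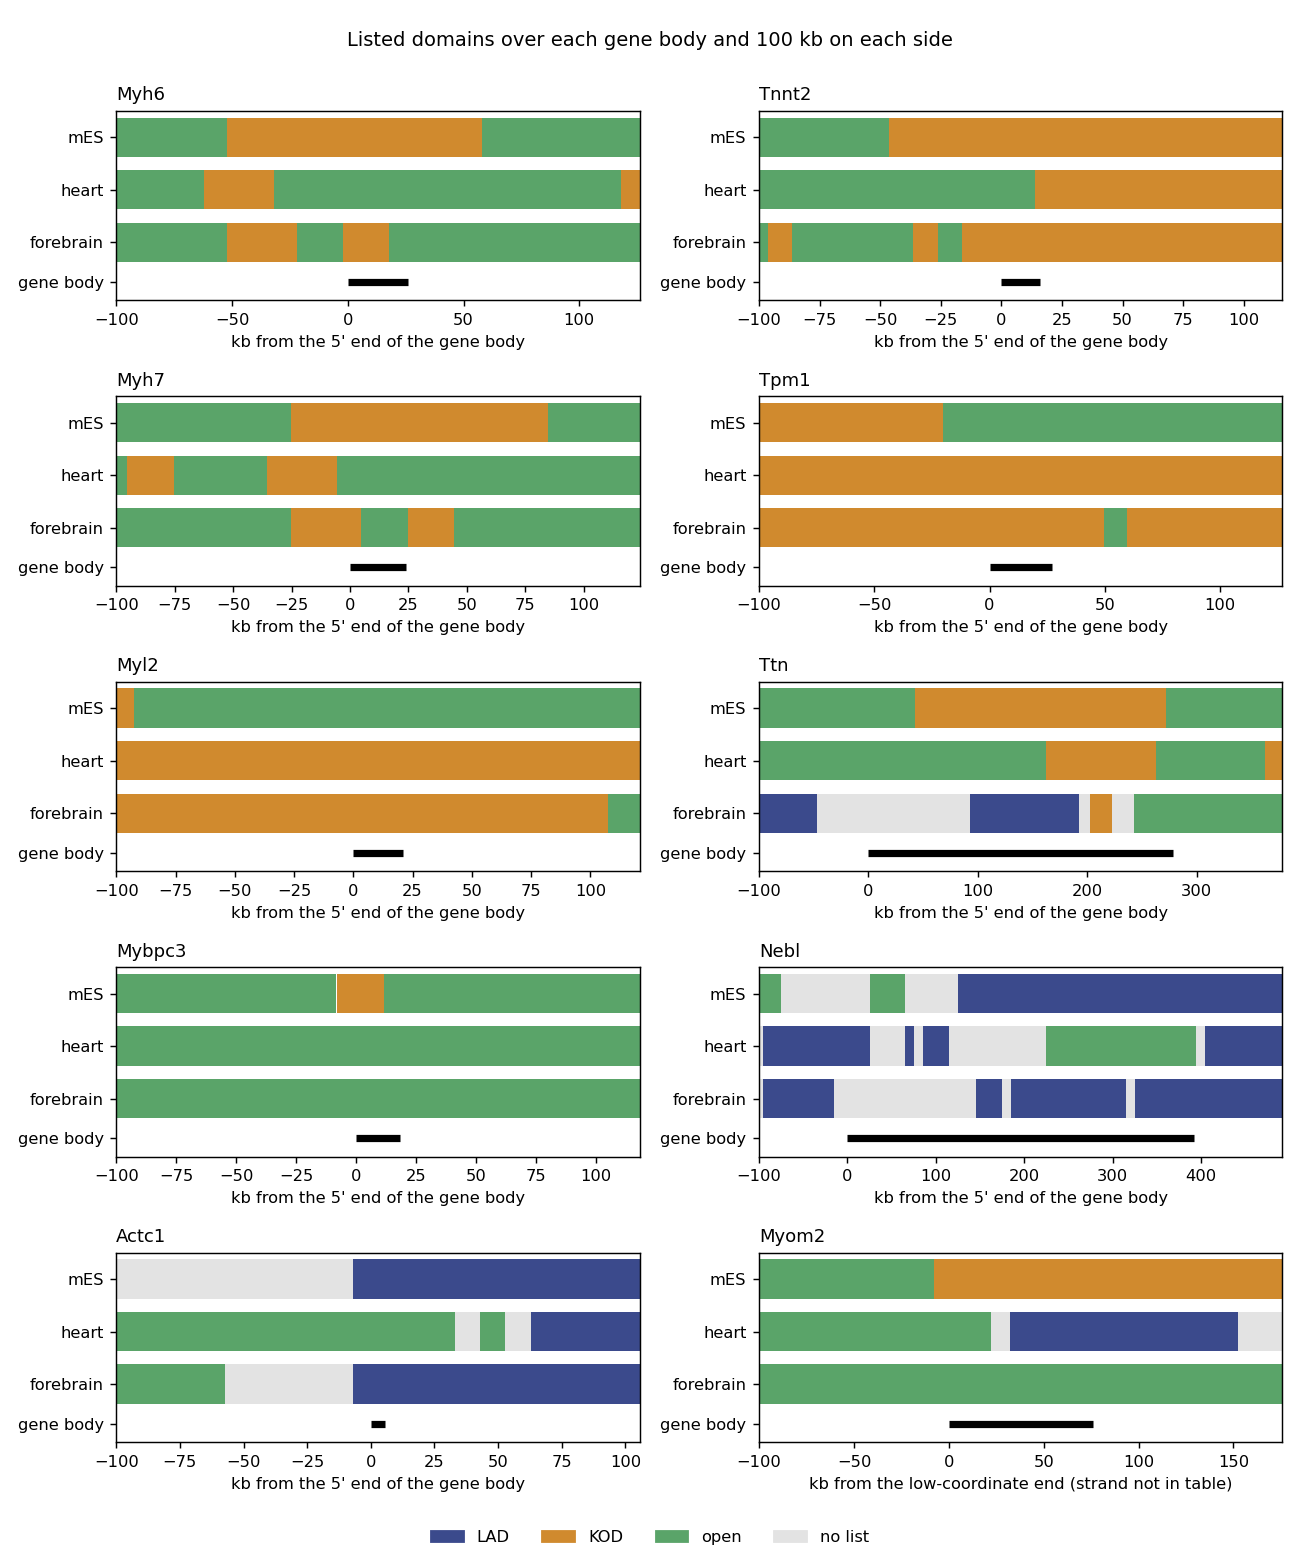
Listed domains (LAD, KOD, open or no list) over each gene body (black bar) and 100 kb on each side in the 3 sources. The horizontal axis is distance in kb from the 5′ end of the body, or from its low-coordinate end for Myom2. Borders run through Tnnt2, Ttn, Nebl and Myom2 in heart, and the Actc1 body sits at the very end of a LAD in mES cells and forebrain.

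Of the scaffold genes, Ttn encodes titin, the giant elastic protein that spans each side of the sarcomere. It lies on chromosome 2 from 76703980 to 76982557, on the minus strand, and its 279 kb held several domains in every source. In mES cells KOD covered 82.6% and open domains 17.4%. In heart open domains covered 64.1% and KOD 35.9%. In forebrain 44.0% was in no list, 35.9% LAD, 12.9% open and 7.18% KOD, so no state is assigned there and Ttn drops out of the forebrain comparisons. Ttn was not LAD at any base in mES cells or heart.

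The start of Ttn was open in both mES cells and heart, and in no list in forebrain. The KOD inside the gene ran from 76710001 to 76940000 in mES cells and from 76720001 to 76820000 in heart, so the heart lacked the part nearer the start. In forebrain a LAD of 100 kb (76790001 to 76890000) lay inside the gene and another from 77030001 upstream of it, with 140 kb in no list between them. The 100 kb upstream was open over 100% in mES cells and heart. In forebrain 52.6% of it was LAD and 47.4% in no list. The 4 neighbours, Plekha3, Fkbp7, Pjvk and Prkra, lie on the side of the 3′ end and were open in every source.

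Nebl encodes nebulette, which binds actin at the Z disc of heart muscle, and also a shorter protein made more broadly. It lies on chromosome 2 from 17342673 to 17734949 on the minus strand and had no protein-coding neighbour wholly within 100 kb. In mES cells 68.1% of its body was LAD, 10.2% open and 21.7% in no list. In heart 42.7% was open, 16.6% LAD and 40.8% in no list. In forebrain 58.0% was LAD, 0% open and 42.0% in no list. Calling it open in heart thus rests on less than 50% of the body, and at the gene midpoint the heart had no listed state.

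The open stretch of the heart was a single domain of 170 kb (17340001 to 17510000) over the 3′ part of the gene, where mES cells and forebrain were mostly LAD. LADs covered 87.3% of the 100 kb downstream and 95.1% of the 100 kb upstream in heart, so the open domain lay between LADs. Together the flanks were LAD over 50.0% in mES cells, 91.2% in the heart and 90.0% in the forebrain. Of 4 annotated starts, that at 17462856 was the only one in an open bin in heart, and it was LAD in mES cells and forebrain. The start at 17670165 was open in mES cells and in no list in both tissues, that at 17526130 was LAD in mES cells and forebrain and in no list in heart, and that at 17731134 was LAD in heart and in no list elsewhere. The letters before 2 of these starts are shown because they bear on whether they are starts at all, since both end in ag, the letters that precede an exon at a splice site.
Nebl, last 20 bases before 17462856: aactgattattttattgcag
Nebl, last 20 bases before 17526130: tgttttctaattcatcatag

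Myom2 encodes myomesin 2, a protein that links myosin and titin at the M band. The gene (chromosome 8, 15057653 to 15133420) was placed without a strand, which is not in the table used. It was KOD over 100% in mES cells, LAD over 57.3%, open over 29.5% and in no list over 13.2% in heart, and open over 100% in forebrain. Of the 10 genes it was the only one that took all 3 states and the only one that was LAD in heart alone. The LAD of the heart (15090001 to 15210000) was 120 kb long and reached 76.6 kb past the high-coordinate end, and the 100 kb on the low-coordinate side was open over 100%. In forebrain an open domain of 2570 kb covered the gene and both flanks. The 1 neighbour, Kbtbd11, was open in all 3 sources.

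Set side by side, the flanks followed the bodies in some genes and not in others. Averaged over the 10 genes with equal weight, KOD covered 54.7% of the body and 25.9% of the flanks in mES cells, and open domains covered 26.3% of the body and 55.3% of the flanks. The means over all genes there were 12.9% and 15.1% for KOD and 63.6% and 60.0% for open. In heart open domains covered 62.2% of the bodies and 51.8% of the flanks, with 57.8% and 52.3% over all genes. In forebrain open domains covered 32.5% and 47.6%, with 57.2% and 52.5% over all genes. For open domains in mES cells and forebrain, and for KODs in mES cells, the flank means of the 10 genes were thus nearer to those of all genes than the body means were. Myl2 and Tpm1 are the cases in which body and flanks were KOD together in both tissues. Mybpc3 and Ttn in mES cells had bodies that stood apart from flanks almost wholly open. KOD covered 64.6% and 82.6% of these bodies, and open domains 95.9% and 100% of the flanks.

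**Figure D3:**
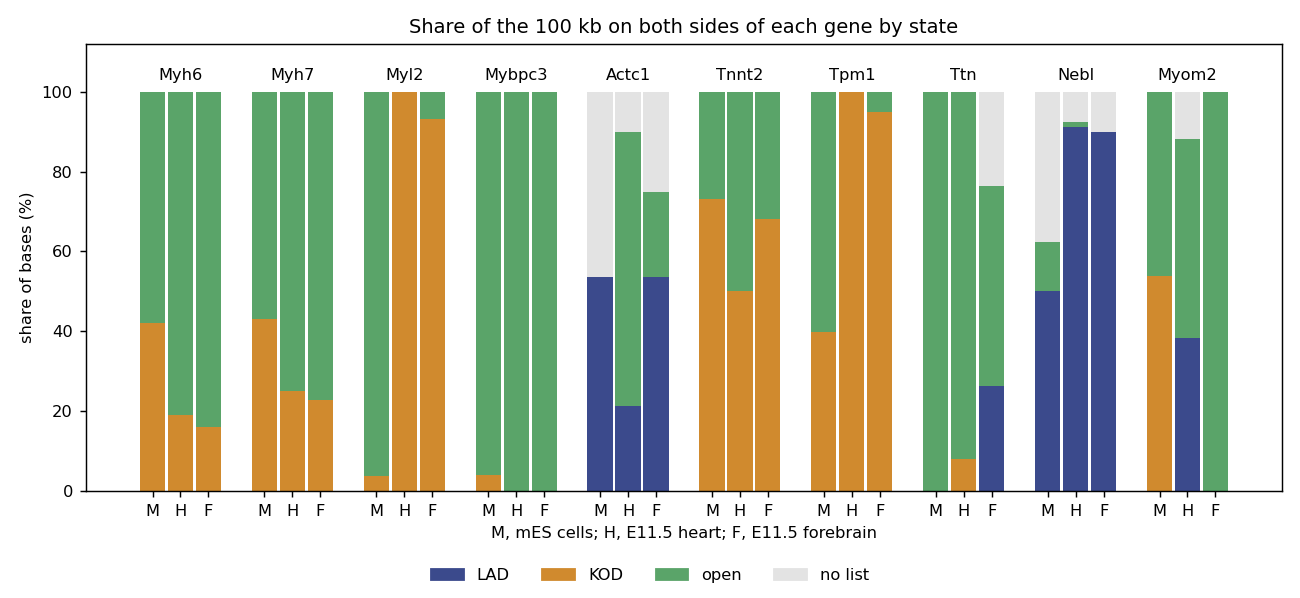
Share of the 100 kb on both sides of each gene together (vertical axis, percent) in LAD, KOD, open or no list, for mES cells (M), heart (H) and forebrain (F). Only the flanks of Actc1, Ttn, Nebl and Myom2 hold LADs, and those of Myl2 and Tpm1 are 100% KOD in heart.

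Distance along the chromosome to the nearest LAD split the list. A base of the body was in a LAD for Actc1 and Nebl in mES cells, for Nebl and Myom2 in heart and for Actc1, Ttn and Nebl in forebrain, that is for 2, 2 and 3 genes, and for 17.9%, 16.6% and 18.5% of all genes. Most of the other genes lay far from any LAD. The median distance from body to nearest LAD was 1177.6 kb in mES cells, 965.0 kb in the heart and 865.0 kb in the forebrain, with 690.0, 446.0 and 629.0 kb for all genes. Nebl touched a LAD in every source, and Actc1 lay 57.3 kb from one in heart.

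**Figure D4:**
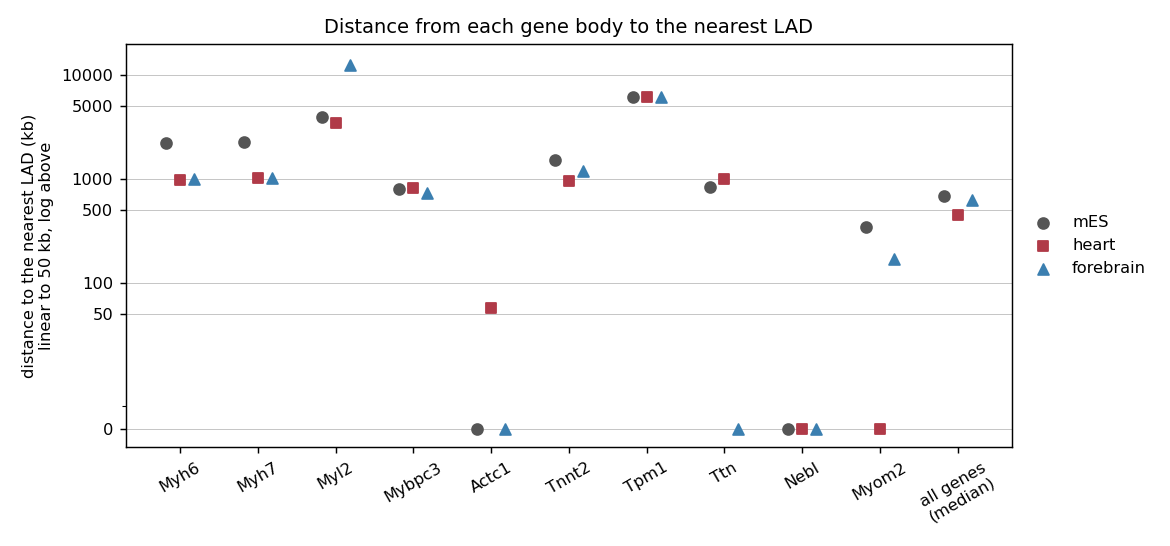
Distance in kb from each gene body to the nearest LAD in the 3 sources, with the median of all protein-coding genes at the right. The axis is linear to 50 kb and logarithmic above. Actc1 is at 0 in mES cells and forebrain and at 57.3 kb in heart, and Myl2 and Tpm1 are the farthest of the 10 genes from a LAD in every source.

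By kind of change from mES cells to heart, 5 of 10 genes went from KOD to open (background 4.45%), 2 from LAD to open (1.92%), 1 from KOD to LAD (1.05%) and 2 from open to KOD (11.0%). From mES cells to forebrain 5 of the 9 genes listed in both differed, with 22.6% of all genes. These were Myh7, Mybpc3 and Myom2 from KOD to open (6.11%) and Myl2 and Tpm1 from open to KOD (13.1%), while Myh6, Tnnt2, Actc1 and Nebl had the same state in both. Between forebrain and heart 5 of 9 differed, with 15.2% of all genes. There Myh6 and Tnnt2 were KOD in forebrain and open in heart (6.49%), Actc1 and Nebl LAD and open (1.29%), and Myom2 open and LAD (0.978%). With 10 kb trimmed from domain ends 1 gene still differed between forebrain and heart, and with 20 kb trimmed 0. Between mES cells and forebrain 3 differed with either trim. The genes lost from these counts were then in no list in a source of the pair, and none came to share a state. The shares of all genes given here were taken without a trim. These pairs of maps share sources, so the counts are not independent of each other.

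The patterns over mES cells, heart and forebrain can be set against all 20661 genes. KOD, open, KOD (Myh6 and Tnnt2) was the pattern of 118 genes, or 0.571%. LAD, open, LAD (Actc1 and Nebl) was that of 108 (0.523%), and KOD, LAD, open (Myom2) of 62 (0.3%). KOD, open, open (Myh7 and Mybpc3) was that of 642 (3.11%), open, KOD, KOD (Myl2 and Tpm1) that of 1345 (6.51%), and KOD, open, no list (Ttn) that of 25 (0.121%). The most frequent course among all genes, open in every source with 9038 genes (43.7%), was that of 0 of the 10. This 0 is no further result, since all 10 differed between mES cells and heart.

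Borders between states lay close to these genes. A body held more than 1 state for 3 of the 10 in mES cells, 4 in the heart and 4 in the forebrain, and for 12.1%, 16.5% and 14.6% of all genes. A border was in the body or within 10 kb of it for 5 of 10 in each source, and for 18.4%, 24.7% and 22.7% of all genes. Of the 10 bodies only those of Ttn and Nebl were over 100 kb. With 10 kb trimmed from domain ends, Mybpc3 was in no list in mES cells, Tnnt2 in heart, Nebl in both tissues, and Myh6 and Myh7 in forebrain, beside Actc1 as given above. With 20 kb trimmed, Myom2 and Myh7 in heart were so too, and 4 of the 10 genes still differed between mES cells and heart, namely Myh6, Myl2, Tpm1 and Ttn.

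Other genes of the sarcomere form a separate list. Of 46 partner genes of the sarcomere, a list drawn up with earlier results of these data known, 28 were open in all 3 sources, as were 43.7% of all genes. From mES cells to heart 7 of 44 listed in both differed (15.9%), 4 becoming open and 3 ceasing to be so. From mES cells to forebrain 9 of 42 differed (21.4%), and between forebrain and heart 6 of 42 (14.3%). The shares over all genes were 19.6%, 22.6% and 15.2%, so partner genes differed about as often as genes in general.

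The counts by role can be set beside the 43.7% of all genes that were open in all sources. Of 6 further thick filament genes 4 were open in all sources, and 0 became open in heart. Among the 4 were Myl3 and Myl7, light chains of ventricular and atrial myosin. Of 12 thin filament genes 8 were open in all, and all 12 were open in heart, where 58.0% of all genes were. Tnni1 became open in both tissues, from KOD over 75.1% of its body in mES cells to open over 100% in heart and 64.2% in forebrain. Tmod1, which caps thin filaments, was KOD, open and KOD as Myh6 and Tnnt2 were, and is named here after its values were seen. Of 19 genes of the Z disc and its surroundings 13 were open in all, among them Actn2 and Tcap. Fhod3, a formin of heart muscle, became open in both tissues, and Myoz2 was open in mES cells and heart and LAD over 100% in forebrain. Of 9 genes of the M band and of protein turnover 3 were open in all. Trim54 and Trim63, ubiquitin ligases of muscle, went from open to KOD in both tissues.

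Skeletal muscle sarcomere genes form another list. Of 16 such genes, a list chosen in the same way, 5 were open in all sources, and 7 were KOD in all, with 43.7% and 5.9% of all genes. The 7 include Myh1, Myh2, Myh4, Myh8 and Myh13, which lie close together on chromosome 11. Myh3, beside them there, was open in all sources. The rest of the 7, Tnni2 and Tnnt3, lie close together on chromosome 7, so the states of the 7 are not independent. From mES cells to heart 2 of 16 (12.5%) differed and 0 became open. Mybpc1 was LAD over 63.5% of its body in heart and open in the other sources, and Myl1 was LAD in forebrain and open elsewhere. No test compared these lists with the 10 genes.

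**Figure D5:**
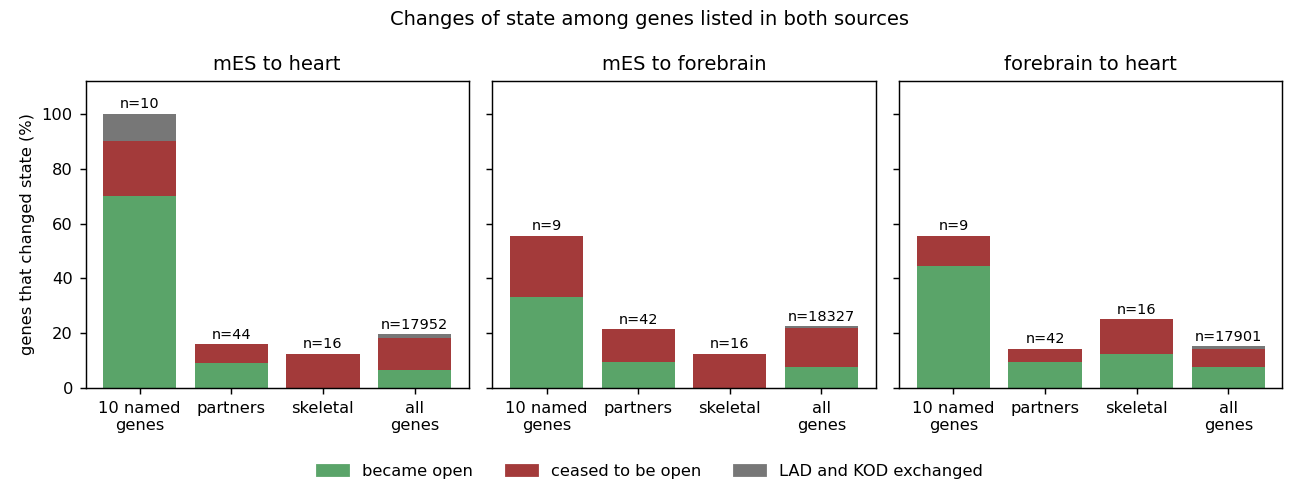
Percent of genes listed in both sources that had another state in the second, for the 10 genes, 46 sarcomere partners, 16 skeletal sarcomere genes and all protein-coding genes, with the number listed in both (n) above each bar. All 10 named genes differ between mES cells and heart, compared with 15.9% of partners, 12.5% of skeletal genes and 19.6% of all genes.

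The labels of the sources can be set only against the states of genes that define them, since RNA was not measured. Of 6 genes of mES cells (such as Pou5f1 and Nanog) 4 were open in the stem cells, 3 in the heart and 4 in the forebrain. Of 6 of heart muscle (such as Nkx2-5 and Hand2) 3, 3 and 1 were open in the same order. Of all genes 63.6%, 58.0% and 57.4% were open in these sources, and the counts do not separate mES cells from heart. Of the forebrain genes, Six3 was open in forebrain and Emx2, Lhx2 and Dlx2 were KOD there. Of genes of other cells of the heart, 3 of 3 blood genes, 3 of 3 epicardial genes and 2 of 5 endothelial ones were open in heart, where 58.0% of all genes were. Among these, Hba-x, Wt1, Tcf21 and the endothelial gene Nfatc1 were open in every source. The blood genes Hbb-bh1 and Hbb-y had the 3 states of Actc1 and Nebl, that is LAD, open and LAD. They lie close together on chromosome 7, so their states are not independent. The epicardial gene Tbx18 was in no list in mES cells, open in heart and LAD in forebrain. The endothelial gene Tie1 had the 3 states of Myh7 and Mybpc3. The part of these other cells in the states of the sarcomere genes was not tested. The blood gene Gata1 is not on the chromosomes analysed here.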

How the data were processed

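CUT&RUN libraries for H3K9me2, Lamin B1 and IgG came from mES cells and from E11.5 heart and forebrain. The submitters' processing notes name the build mm10 and, as tools, deepTools, Picard, Bowtie2 2.5.0, cutadapt 4.2 and Trim Galore. The domain caller, its thresholds and its use of IgG are not given in the sources used here. The authors deposited 9 domain lists, each with 3 columns (chromosome, start, end) in bins of 10 kb, pooled over libraries and with no score. Ends were read as inclusive. Signal tracks, which the labels also name, were not analysed here. A deeper library or looser threshold can lengthen domains, and bins with few mappable reads can fall out of all lists.

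Bases of each gene body, and of 100 kb on each side, were counted by list with Python 3.11.15, numpy 2.4.6 and pandas 2.3.3, with counting code tested on simulated data. The state of a gene is the list with the largest share of its body, ties going to LAD, then KOD, then open. A difference in state is counted among genes listed in both sources. Genes, strands, starts and sequences came from RefSeq tables of GRCm38.p6, the assembly behind mm10, and all 10 genes were found. Figures were drawn with matplotlib 3.10.9. Members and gene lists were chosen with earlier results of these data known. All 10 genes are named. Partner and skeletal genes are named when LAD in mES cells and not in a tissue or the reverse, or when exchanged between KOD and open in both tissues, and neighbours when their 3 states equal the member's. Other genes are named as examples of a count, and some genes that meet these rules are not reported here. With 1 pooled map per source there was no test.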

Additional observations from a re-analysis of the deposited data

How the results depend on the processing

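No paired analysis was possible because the lists pool the replicates, and for the same reason no replicate could be left out. The number of genes that differed between mES cells and heart was 10, and it was 6 with 10 kb and 4 with 20 kb trimmed from domain ends. Between mES cells and forebrain it was 5, and 3 with either trim or with domains under 50 kb left out. Between forebrain and heart it was 5, and 1 with 10 kb trimmed, 0 with 20 kb trimmed and 3 without domains under 50 kb. Trimming puts bases near domain ends in no list by construction. In mES cells LAD genes numbered 1 in place of 2 with either trim, and genes in no list 2 with either trim and 1 without short domains. In heart genes in no list numbered 1 by midpoint, by the 50% minimum and without short domains, 2 with 10 kb and 4 with 20 kb trimmed. With 20 kb trimmed, open genes in heart numbered 4 in place of 7 and LAD genes 0. In forebrain LAD genes numbered 0 with either trim, and genes in no list 5 with either trim, 3 without short domains and 0 by midpoint. Each state that differed under a trim went to no list. Filling gaps of at most 20 kb altered 0 of the 30 states, and counting Myh6 and Myh7 once left each of the 3 counts of differences within 1.5 times. The largest state of the flanks was another one for 3 of 30 with flanks of 50 kb and for 5 of 30 with 200 kb. Depth is unknown, so precision cannot be given.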
